A study of Mus musculus with 6 samples.

Results

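The 200 most abundant non-coding genes of aged mouse oocytes were described. They were chosen by their level: the rows of the deposited table that are not marked as protein coding were ranked by mean FPKM over the 6 libraries, and the first 200 of 7858 such rows were taken, out of 25631 rows in all. FPKM is the number of reads divided by the exonic length and by the reads of the library, so levels of different genes can be compared per length. The levels and the ranking are therefore a description of the selected genes and were not tested, while aminophylline and control libraries entered the ranking with equal weight.

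Oocytes had been punctured from large antral follicles of 14-month-old ICR mice that had been injected with eCG, a gonadotropin that drives follicle growth. For the aminophylline group (3 libraries), 4.0 mM of the drug was given in drinking water over 1 week and followed by 3 weeks of plain water. Mice of the control group (3 libraries, labelled as aged and untreated) had plain water throughout. Aminophylline is a theophylline derivative that inhibits phosphodiesterases, the enzymes that break down cyclic AMP and cyclic GMP. How many mice or oocytes stand behind a library is not given in the sources used here, so p-values measure the spread between these libraries only, and fewer cells of a type and less RNA per cell cannot be told apart.

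Long non-coding RNAs are transcribed by RNA polymerase II, and many are spliced and polyadenylated like messenger RNAs but carry no long reading frame. A growing oocyte stores RNA, and transcription stops in the fully grown oocyte, so that the level of an RNA there depends on what was stored and what was degraded. Mouse oocytes are known for transcripts that start inside long terminal repeats of retrotransposons, and many of these transcripts are found in hardly any other tissue.

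The libraries held 14112341 to 33641283 reads. All 10 oocyte markers were tested and none passed the thresholds used below, with Dppa3 between 7461 and 11563 FPKM and Gdf9 between 1518 and 3663. Of 12 granulosa and cumulus markers, 4 passed the filter on low values. The summed level of the 12 was 215 to 278 FPKM in control and 163 to 178 in aminophylline libraries, most of it Serpine2 (198 to 254 and 145 to 155), and its part in the results below was not tested, while Foxl2, Amh and Fshr stayed at or under 0.270 FPKM. The 12 macrophage markers summed to 251 FPKM in control 1 and to 81.9 to 103 in the other 5 libraries. Lyz2 was at 66.4 FPKM in control 1 and at most 0.573 elsewhere, and C1qc was at 14.8 and at 0 elsewhere, whereas C1qb was between 72.3 and 99.8 in all 6. The 8 theca and stroma markers in the table summed to at most 1.90 FPKM the 4 erythrocyte markers to at most 0.585 and the 3 endothelial markers to at most 8.89.

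By name, 140 of the 200 were gene models called Gm or LOC, 36 were Rik clones, 4 were named as opposite-strand transcripts, 4 were hosts of small nucleolar RNAs, 1 was a pseudogene by name and 15 had other names. The deposited table gives all of them the single type non-coding. RefSeq lists 191 of them as lncRNA, and 9 gene numbers were not matched there. One, Ccdc201, carries the name of a coiled-coil protein gene and was kept because the table marks it as non-coding. No microRNA, small nucleolar RNA or small structural RNA was among the 200. Of 27 small structural RNAs looked for, 1 was in the table, at no more than 0.719 FPKM. The others had no row, so their absence from the 200 does not tell their level in oocytes. The exons of the 200 were short, with a median of 879 bases (119 to 6474) against 3136 bases for the 8836 coding genes tested. Their median number of reads per library value was 1482, and 198 of the 200 had at least 100 reads in every library.

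A few genes carried much of the signal. The first 10 held 28.6% and the first 50 held 63.9% of the summed FPKM of the 200, and the 200 held 73.3% of that of all non-coding rows. Levels fell from 1265 FPKM at rank 1 to 332 at rank 10, 109 at rank 50, 55.8 at rank 100 and 25.6 at rank 200. The last 3 inside the list were AW495222 (26.0 FPKM), AI463170 (25.9) and Gm10637 (25.6), and the first 3 outside were Gm20759 (25.5), Gm39488 (25.2) and Gm38762 (25). Among all listed genes, coding ones included, 3 of the 200 stood in the first 100 and 52 in the first 1000. Only 18.8% of the non-coding rows reached a mean of 1 FPKM.

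**Figure D1:**
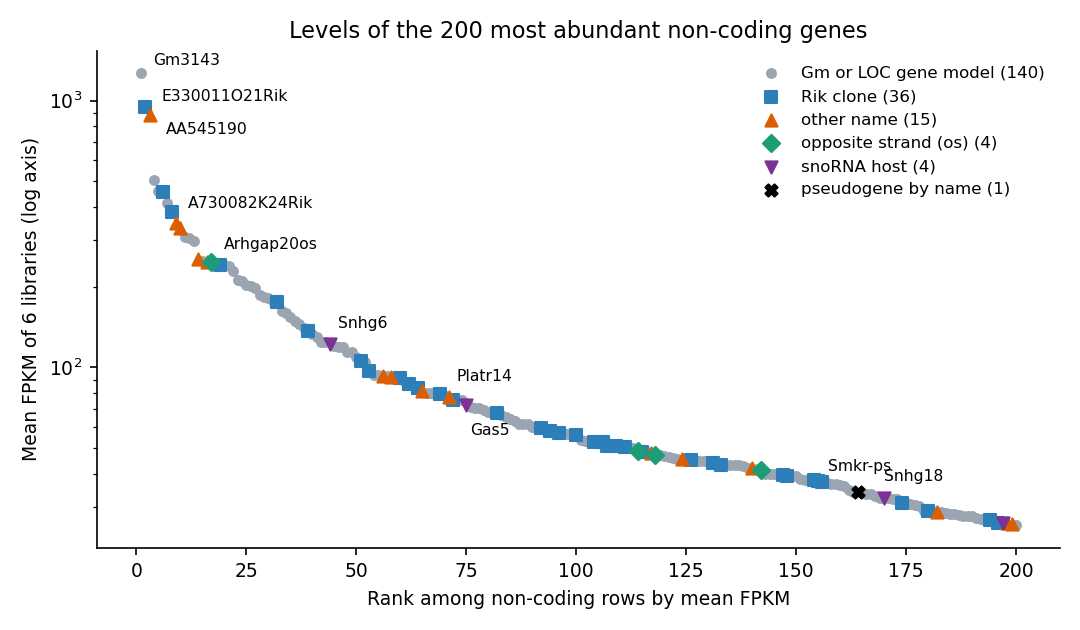
Mean FPKM over 6 libraries (log axis) against rank for the 200 genes, with a symbol for each name class and its number of genes in brackets. Gm3143 (1265 FPKM), E330011O21Rik (948) and AA545190 (883) stand above a long slope that ends at 25.6, and the snoRNA hosts lie between ranks 44 and 197.

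Gm3143 was the most abundant, at rank 44 of all listed genes. Its level was 1141, 1654 and 842 FPKM in control and 1569, 1331 and 1053 FPKM with aminophylline, so the groups overlapped. E330011O21Rik (rank 73 of all genes) was at 898, 1021 and 824 in control and at 998, 1019 and 928 with aminophylline. AA545190 (rank 85) was at 1253, 760 and 893 in control and at 836, 780 and 778 with aminophylline, with control 1 above all other libraries. Of the next 7, Gm40003 (mean 504 FPKM), Gm14664 (457), 2500002B13Rik (454), AU016765 (349) and D16Ertd519e (332) had log2 fold changes (aminophylline minus control) of 0.02 to 0.26, none past the thresholds. Gm5 (414 FPKM) was at 366, 413 and 349 in control and at 454, 446 and 459 with aminophylline, where the groups did not overlap and the log2 fold change of 0.27 ± 0.144 (SE) stayed under the fold threshold. The other of the first 10, A730082K24Rik, was lower with aminophylline and is described below with its promoter.

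The steadiest of the 200 were Gm36808 (coefficient of variation over the 6 libraries 5.99%), Gm40617 (7.23%) and Gm14216 (7.70%). The most variable were Gm41040 (63.6%), BC002059 (51.5%) and 4833447I15Rik (50.5%). BC002059 was at 58.2 FPKM in control 1 and at 18.5 to 28.5 elsewhere, and 4833447I15Rik was at 9.86 in control 1 and at 14.5 to 44.9 elsewhere. No gene had a library over 5 times the next-highest one, and the largest such ratio was 2.04, for BC002059. The median coefficient of variation was 16.8% for the 200 and 16.7% for the 2328 coding genes in the same range of mean FPKM.

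Some of the genes had start regions that resembled each other. RefSeq (GRCm38.p6) gave a promoter window, 250 bases before to 50 bases after the start, for 152 of the 200. Of these 152 genes, 39 (25.7%) had a window like that of another listed gene, with at least 75% identity over at least 100 bases. The share was 15.8% of 936 other non-coding genes and 5.34% of 7100 coding genes with a mean of at least 1 FPKM. Within the 200, 13 genes fell into 3 groups of like promoters. The first group held Gm3143, Gm16497, Gm17751, Gm41644, Gm36480, Gm19299, Gm41040 and AA536875. Together with the listed genes whose windows resembled theirs, they made 81 genes, 15 of them coding. In this group the window of Gm36480 aligned in the opposite orientation. The second group held A730082K24Rik, 0610040F04Rik and 2410021H03Rik, and the third Gm36619 and Gm41533. No repeat annotation was used here, so the like stretches were not assigned to a repeat family.

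The windows of 3 genes of the first group are shown because they include the most abundant gene and the gene with the largest increase. Gm41040 starts on chromosome 13 (chr13:100863802-100864101, minus strand), Gm41644 on chromosome 17 (chr17:85755879-85756178, plus strand) and Gm3143 on chromosome 3 (chr3:34716613-34716912, minus strand). Capitals mark the bases that aligned to Gm41644 or, for Gm41644, to Gm41040. The Gm41040 and Gm41644 windows were 92.7% identical over 288 aligned positions, and those of Gm3143 and Gm41644 84.9% over 225. In Gm41040 the aligned stretch reached the end of the window, 50 bases into the transcript, and how the authors' counting treated reads that fit several such places is not given in the sources used here, so its level is uncertain to that extent.
Gm41040: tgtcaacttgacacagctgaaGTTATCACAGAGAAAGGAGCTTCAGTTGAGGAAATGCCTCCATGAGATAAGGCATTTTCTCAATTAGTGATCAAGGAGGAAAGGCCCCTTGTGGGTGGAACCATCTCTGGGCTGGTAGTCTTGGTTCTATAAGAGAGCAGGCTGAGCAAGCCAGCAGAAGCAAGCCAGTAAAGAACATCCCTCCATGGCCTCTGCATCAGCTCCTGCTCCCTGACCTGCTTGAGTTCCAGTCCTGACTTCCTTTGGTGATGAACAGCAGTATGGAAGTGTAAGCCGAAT
Gm41644: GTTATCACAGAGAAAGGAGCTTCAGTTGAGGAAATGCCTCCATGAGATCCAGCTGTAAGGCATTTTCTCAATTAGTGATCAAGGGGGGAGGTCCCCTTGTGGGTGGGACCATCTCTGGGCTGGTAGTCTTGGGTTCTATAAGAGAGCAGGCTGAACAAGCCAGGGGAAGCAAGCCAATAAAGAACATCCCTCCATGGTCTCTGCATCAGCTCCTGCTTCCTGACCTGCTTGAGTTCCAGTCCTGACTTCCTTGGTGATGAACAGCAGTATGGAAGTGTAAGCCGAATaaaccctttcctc
Gm3143: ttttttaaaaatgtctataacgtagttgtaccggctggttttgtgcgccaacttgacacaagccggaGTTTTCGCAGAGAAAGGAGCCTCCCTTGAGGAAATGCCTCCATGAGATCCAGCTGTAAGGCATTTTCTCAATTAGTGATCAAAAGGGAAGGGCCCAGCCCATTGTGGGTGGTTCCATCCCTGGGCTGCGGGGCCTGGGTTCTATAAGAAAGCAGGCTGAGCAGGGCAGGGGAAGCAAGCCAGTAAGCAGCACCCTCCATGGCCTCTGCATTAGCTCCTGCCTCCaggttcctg

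The windows of A730082K24Rik (chr7:114948400-114948699, plus strand) and 2410021H03Rik (chr17:69277157-69277456, minus strand) are shown because the first of these genes fell with aminophylline and the second did not pass the test. They were 85.8% identical over 239 aligned positions, which are in capitals.
A730082K24Rik: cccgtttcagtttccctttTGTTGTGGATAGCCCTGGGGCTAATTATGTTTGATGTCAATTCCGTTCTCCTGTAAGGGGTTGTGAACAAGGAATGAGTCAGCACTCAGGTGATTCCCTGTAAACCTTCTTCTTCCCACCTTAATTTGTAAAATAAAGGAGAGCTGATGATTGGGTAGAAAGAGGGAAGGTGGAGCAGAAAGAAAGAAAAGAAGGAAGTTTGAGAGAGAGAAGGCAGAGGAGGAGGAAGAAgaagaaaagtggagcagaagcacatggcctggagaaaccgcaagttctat
2410021H03Rik: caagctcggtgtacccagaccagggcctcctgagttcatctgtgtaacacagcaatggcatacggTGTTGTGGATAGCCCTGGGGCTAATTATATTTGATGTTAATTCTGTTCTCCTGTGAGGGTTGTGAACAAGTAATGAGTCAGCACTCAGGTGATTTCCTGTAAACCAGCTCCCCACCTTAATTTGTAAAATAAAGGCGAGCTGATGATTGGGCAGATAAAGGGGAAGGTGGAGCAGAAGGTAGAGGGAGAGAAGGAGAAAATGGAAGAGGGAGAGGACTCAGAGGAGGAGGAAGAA

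The promoter windows were poor in CpG. The ratio of observed to expected CpG was taken from the first window of each gene. Its median was 0.24 for the 152 genes with a window, 0.27 for other non-coding genes and 0.77 for coding genes with a mean of at least 1 FPKM. Letters were searched on either strand and counted by gene, in any of its windows. GGGCGG was found in 20.4% of the 152 genes, in 23.2% of other non-coding genes and in 65.8% of coding genes, with 47.5% over all listed genes. CCAAT was found in 50.7% of the 152 genes, in 40% of other non-coding genes and in 44.2% of coding genes (all listed genes 41.9%). TATAAA was found in 15.1%, in 15.2% of other non-coding genes and in 9.32% of coding genes (all listed genes 13.4%), again on either strand. Read on both strands, the ends of these motifs can share letters, and the matches describe the windows only.

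Relative to coding genes, 39 of the 177 genes with a known strand (22.0%) overlapped a coding gene on the other strand, 17 (9.60%) started within 1 kb of a coding gene that runs the other way, and 5 (2.82%) lay within 5 kb downstream of one. Among 1045 other non-coding genes with a mean of at least 1 FPKM, the shares were 24%, 11.7% and 2.49%. Whether reads were counted by strand is not given in the sources used here, so reads of a gene and of its partner on the other strand cannot be told apart. In 19 of 42 overlapping pairs the coding gene had a mean under 1 FPKM. The non-coding genes were chosen for high levels, so that they exceed most of these partners is no finding.

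Examples come from the upper end of the list. 2500002B13Rik (454 FPKM) runs away from Sap30 (320 FPKM), a subunit of the Sin3 histone deacetylase complex. 2810408I11Rik (242 FPKM) runs away from Ccnyl1, a cyclin-like gene at 6.99 FPKM. Gm5 lies downstream of Zar1l (680 FPKM), a relative of the maternal-effect gene Zar1. None of these 3 coding genes passed the thresholds, with log2 fold changes of 0.22, 0.10 and 0.19. Among the other coding partners, Ankrd54 (0.78), Plekhg3 (0.80) and Tspyl4 (0.61) were higher past them, with unadjusted limma p of 0.0205, 0.0230 and 0.0415. The adjusted p was 0.682 for each, and 2.08% of all genes tested were higher past the thresholds. Their non-coding neighbours Gm3924 (-0.11), AI463170 (-0.01) and Gm26564 (0.22) did not pass.

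Of the genes named as opposite-strand transcripts, Arhgap20os (249 FPKM) overlapped Arhgap20, which stayed at or under 0.690 FPKM in every library. Tbx3os1 (46.9) and Hnf4aos (41.4) likewise lay across the genes they are named after, of which Tbx3, a T-box transcription factor, reached 0.120 FPKM and Hnf4a, a nuclear receptor of liver and gut, 0.0139. Hnf4aos also overlapped R3hdml on the other strand, which was expressed, at a mean of 43.1 FPKM. Kbtbd8os (48.6 FPKM) starts beside an expressed gene: Kbtbd8, a substrate adaptor of a cullin ubiquitin ligase, stood at 60.0, 32.8 and 90.1 FPKM in control and at 52.6, 63.2 and 84.6 with aminophylline. The log2 fold changes were -0.22 for Arhgap20os, 0.06 for Kbtbd8os, 0.18 for Tbx3os1 and 0.22 for Hnf4aos, all with adjusted p-values of 0.761 or more by limma.

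The best-known long non-coding RNAs were not among the most abundant. Of 28 such genes in the table, 8 passed the filter, 0 passed the thresholds and 1 was in the first 200: Platr14, a transcript described in embryonic stem cells, at rank 71, with 74.2, 86.5 and 66.2 FPKM in control and 86.8, 73.5 and 76.0 with aminophylline (log2 fold change 0.06). Pvt1, which lies beside Myc, was at rank 275, Oip5os1 (Cyrano) at 356, Malat1, an abundant nuclear RNA of most somatic cells, at 743, and Tug1 at 1175. Xist, which silences an X chromosome in somatic cells of females, had rank 5614 and at most 0.0581 FPKM. Neat1, the scaffold of paraspeckles, had rank 7342.

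The 4 hosts of small nucleolar RNAs in the list were Snhg6 (122 FPKM), Gas5 (72.0), Snhg18 (32.5) and Snhg15 (26.2). Such genes are spliced, and the introns give small RNAs that guide the chemical modification of ribosomal RNA. Gas5 was at 63.0, 73.0 and 59.1 FPKM in control and at 79.2, 78.5 and 79.1 with aminophylline, without overlap (log2 fold change 0.28 ± 0.156 SE, adjusted p = 0.720). Snhg18 was at 27.4, 31.2 and 26.4 in control and at 36.6, 37.5 and 35.8 with aminophylline, also without overlap (log2 fold change 0.36 ± 0.164 SE, unadjusted p = 0.0480, adjusted p = 0.684 by limma). Snhg6 (118, 113 and 116 against 129, 109 and 143) and Snhg15 (21.9, 39.0 and 18.5 against 29.8, 23.7 and 24.1) overlapped between groups. The 4 together summed to 236 ± 18.7 FPKM (SD, n = 3) in control and 269 ± 17.5 in aminophylline libraries (exact two-sided permutation test, p = 0.200, where 3 against 3 cannot go below 0.1).

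Of 21 snoRNA hosts in the table, 13 passed the filter on low values, these 4 included. All 13 had a higher mean log2(FPKM + 1) with aminophylline, beside 64.8% of all genes tested. The filter can favour genes that are high in 1 group. Snhg20, at 0.446, 1.54 and 0.786 FPKM in control and at 1.53, 1.75 and 1.25 with aminophylline, passed mainly through aminophylline libraries. Hosts that it removed went both ways, such as Snhg7 (0.280, 0.859 and 0.0848 against 0.239, 0.0544 and 0.176) and Snhg4 (0.155, 0.0616 and 0.164 against 0.431, 0.807 and 0.540). By limma, 2 of the 13 had an unadjusted p under 0.05 (all genes 7.25%) and 0 passed both thresholds. Their median log2 fold change was 0.36 against 0.095 for all genes tested. When 1 library was left out, 11 to 13 of the 13 had the higher mean log2 value, and with TPM or quantile scaling 12. With every library centred on its median, 11 of 13 were higher and the median was 0.28 against 0.01 for all genes. After a correction for exonic length, with the replicate number in the model, 9 of 13 were higher with a median of 0.17. Among 39 tested proteins of small RNA particles and of nonsense-mediated decay, 1 was higher past the thresholds, which is near the background of 2.08%, and 0 were lower. This was Fbl, fibrillarin, the methyltransferase of box C/D small nucleolar RNA particles, at 1.14, 1.04 and 1.80 FPKM in control and at 2.68, 3.08 and 3.34 with aminophylline (log2 fold change 0.80 ± 0.211 SE, adjusted p = 0.651 by limma).

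The main comparison asked which of the abundant non-coding genes differed between aminophylline and control. All 200 passed the filter on low values, which asked for 1 FPKM or more in 3 or more libraries. The thresholds were an unadjusted limma p under 0.05 and a fold change over 1.5. Past them, 5 of the 200 were higher (2.50%) and 3 were lower (1.5%), near the background of 2.08% higher and 1.13% lower among all 10340 genes tested. At an unadjusted p under 0.05 alone, 15 of the 200 (7.5%) stood beside 7.25% of all genes. No gene of the 200 had an adjusted p under 0.05 by limma (background 0%), the smallest being 0.651, and limma's voom on the recovered reads also called 0. Without control 1, the library with the highest sum of macrophage markers, 3 were higher and 1 lower. Without control 2, the shallowest library, the counts were 21 and 6. In the centred data the split was 1 higher and 4 lower, and after scaling to a common FPKM sum 3 and 4.

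The groups did not overlap in 18 genes that were higher (9%, all genes 7.51%) and 10 that were lower (5%, all genes 4.96%). Their log2 fold changes ran from 0.23 to 1.69 and from -1.03 to -0.21. Over all 200 the median log2 fold change was 0.13, against 0.095 over all genes tested. A higher mean log2(FPKM + 1) with aminophylline was found in 71.0%, against 64.8%. The quartiles of the 200 were -0.03 and 0.26.

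**Figure D2:**
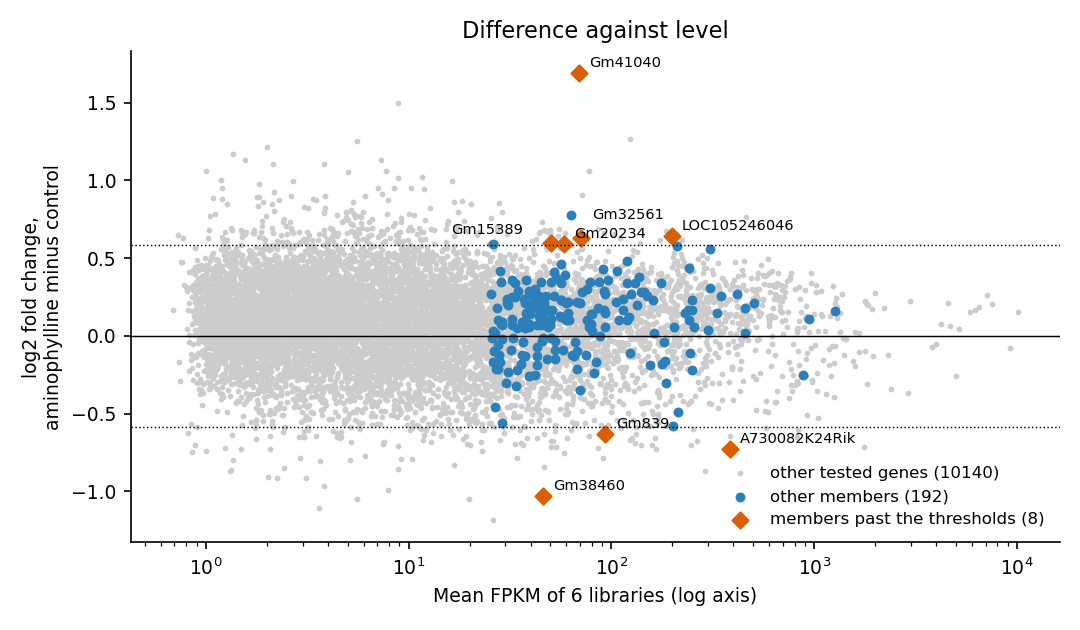
Log2 fold change (aminophylline minus control) against mean FPKM of 6 libraries (log axis) for the 200 genes over the other genes tested, with dotted lines at a fold change of 1.5. The 5 higher and 3 lower genes past the thresholds are drawn as diamonds, and Gm41040, at 1.69, has the largest increase of all 10340 genes tested.

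Gm41040 differed most. This short gene of chromosome 13, with 190 exonic bases, was at 14.5, 61.9 and 30.1 FPKM in control and at 120, 119 and 68.8 with aminophylline. Its mean was 35.5 ± 24.1 FPKM (SD, n = 3) in control and 103 ± 29.4 with aminophylline. Every aminophylline library was above every control library, although aminophylline 3 and control 2 were close. The log2 fold change was 1.69 ± 0.413 (SE; unadjusted p = 0.00179, adjusted p = 0.651), the highest of all genes tested. These values rested on 93 to 182 reads in control and 400 to 644 with aminophylline. Without control 1 the log2 fold change was 1.18.

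The other 4 higher genes changed by about the fold threshold. LOC105246046, across from Atf7, a basic leucine zipper transcription factor, on chromosome 15, was at 157, 166 and 139 FPKM in control and at 293, 243 and 194 with aminophylline (log2 fold change 0.64 ± 0.179 SE). Gm32561 was at 59.3, 60.4 and 47.3 in control and at 94.1, 95.1 and 71.0 with aminophylline (0.63 ± 0.181). In both the groups did not overlap. Gm20234, across from Slfn2 of the Schlafen family, was at 39.5, 65.1 and 36.4 in control and at 77.9, 75.2 and 56.0 with aminophylline (0.59 ± 0.233). Gm15389 was at 35.9, 52.9 and 30.3 in control and at 81.0, 61.3 and 41.1 with aminophylline (0.60 ± 0.266). In these last 2 the groups overlapped, and leaving out control 1, control 3, aminophylline 1 or aminophylline 2 raised the unadjusted limma p above 0.05, to between 0.0879 and 0.202. Atf7 (mean 0.983 FPKM, log2 fold change 0.13) and Slfn2 (0.194 FPKM) were almost silent.

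3 genes were lower. Gm38460 on chromosome 17, with 119 exonic bases, was at 73.4, 45.9 and 67.9 FPKM in control and at 24.7, 30.5 and 34.1 with aminophylline. Its mean was 62.4 ± 14.6 against 29.8 ± 4.73 FPKM (SD, n = 3), without overlap, and its log2 fold change of -1.03 ± 0.213 (SE) was the fifth lowest of all genes tested. These values rested on 77 to 294 reads. Gm839 was at 139, 97.3 and 107 in control and at 74.6, 79.2 and 64.8 with aminophylline (log2 fold change -0.63 ± 0.178 SE). A730082K24Rik was at 665, 420 and 365 in control and at 310, 291 and 248 with aminophylline (-0.73 ± 0.217). Control 1 was the highest of the 6 libraries in all 3, and without it the log2 fold change of A730082K24Rik was -0.47 and that of Gm839 -0.48, while that of Gm38460 was -0.90. The sum of the macrophage markers was also highest in control 1, although C1qb and Laptm5 were not, and their part in these differences was not tested.

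**Figure D3:**
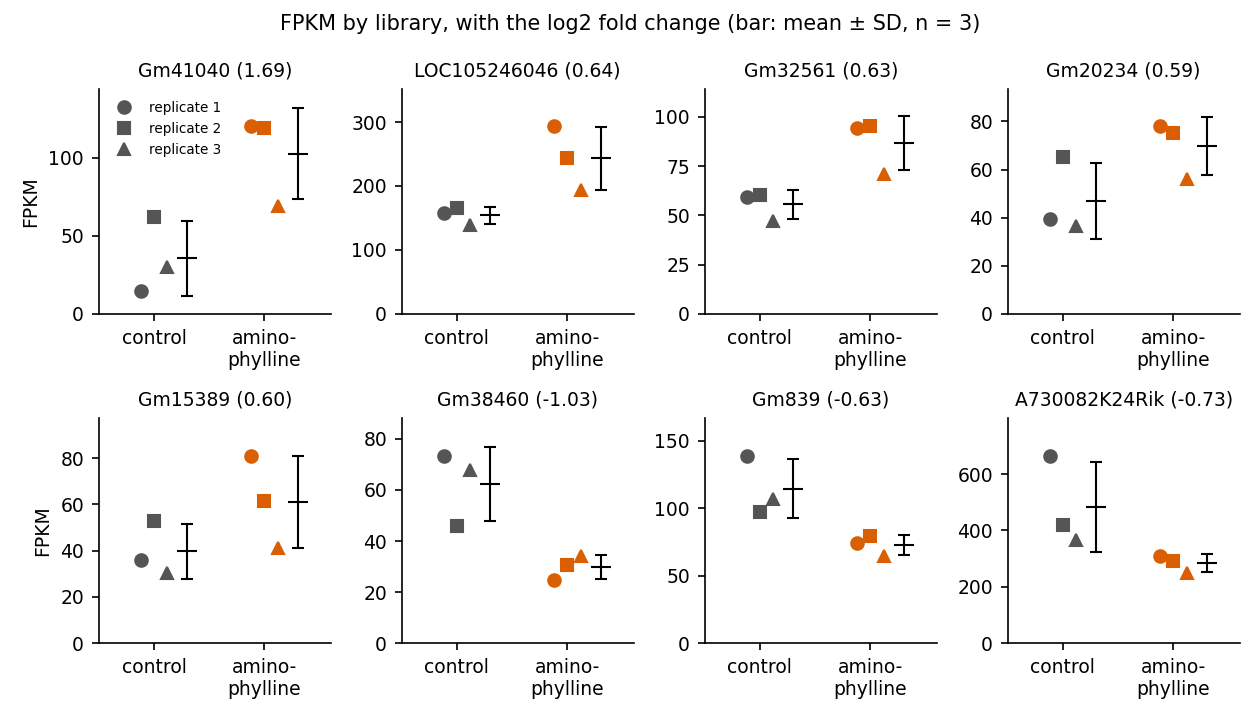
FPKM in each library (circle, square and triangle for replicates 1, 2 and 3) of the 8 genes past the thresholds, with the mean and SD of 3 libraries beside the points and the log2 fold change in each title. The aminophylline values lie above all control values for Gm41040, LOC105246046 and Gm32561 and below them for Gm38460, Gm839 and A730082K24Rik, while the groups overlap for Gm20234 and Gm15389.

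The labels number the libraries but state no pairing. Deviations of same-numbered control and aminophylline libraries correlated at r = 0.138, 0.140 and 0.552, while control 2 with aminophylline 1 reached 0.423. The fit was also repeated with the replicate number as a block. Then 7 of the 200 were higher and 3 lower past the thresholds (all genes 2.59% and 1.23%). At an adjusted p under 0.05 in the blocked limma fit, 1 was higher and 2 were lower (all genes 0.338% and 0.116%). These were Gm41040 (adjusted p = 0.00208), Gm38460 (0.0153) and A730082K24Rik (0.0472). With a correction for exonic length added to the block, their adjusted p-values were 0.155, 0.153 and 0.155 by limma, the log2 fold changes 1.43, -1.30 and -0.77, and 0 of the 200 passed. With median centring and the block, 0 of the 200 passed as well.

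Genes with like promoters had log2 fold changes of both signs. In the first group the log2 fold change ran from 1.69 for Gm41040 and 0.58 for Gm41644 to -0.49 for Gm17751 and -0.58 for Gm36480. Gm41644 was at 145, 223 and 138 FPKM in control and at 272, 284 and 196 with aminophylline, and Gm36480 at 341, 191 and 201 in control and at 179, 135 and 161 with aminophylline. Gm41644 overlapped between the groups and Gm36480 did not, and both stayed just under the fold threshold (unadjusted limma p 0.0212 and 0.0244). Of the 40 tested genes in this group or with windows like it, 3 were higher (Gm41040, Gm31590 and Gm34965) and 1 was lower (Gm4224). These counts stood beside 2.08% and 1.13% of all genes tested. The median log2 fold change of the 40 was -0.02. In the second group, 2410021H03Rik was at 51.7, 59.0 and 48.9 FPKM in control and at 61.1, 59.4 and 54.6 with aminophylline (log2 fold change 0.13 ± 0.159 SE), and 0610040F04Rik had a log2 fold change of -0.17 ± 0.182 (SE). In the third, Gm41533 (0.44 ± 0.250) and Gm36619 (0.41 ± 0.242) did not pass the thresholds. Of the 4 tested genes in this group or with windows like it, these 2 included, only 1700025F24Rik was higher past them (0.71 ± 0.23). The difference between genes of a group was not tested.

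**Figure D4:**
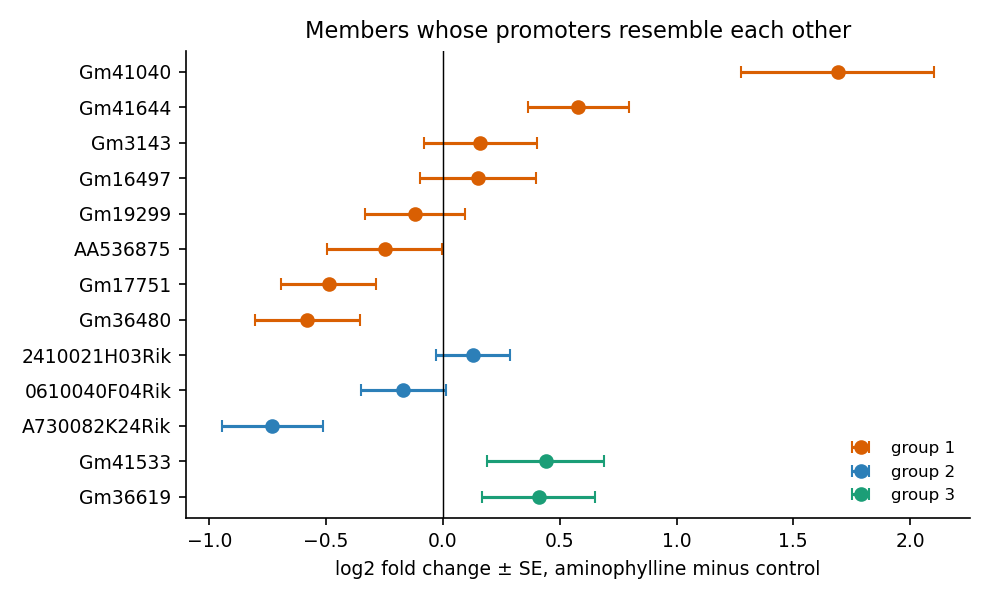
Log2 fold change (aminophylline minus control) with its SE for the 13 genes in 3 groups of like promoters, from limma on log2(FPKM + 1) with 3 libraries a group. The first group runs from 1.69 (Gm41040) to -0.58 (Gm36480), across 0.

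5 of the 200 were over 1.5 times higher in control 1 than in any other library (2.50%, all genes tested 0.928%). They were A730082K24Rik, Gm17751, Gm36480, AA536875 and BC002059, named after their values were seen, and 3 of them belong to the first promoter group. AA536875 was at 68.0 FPKM in control 1 and at 33.0 to 41.1 elsewhere. Another 4, Gm41040 among them, were lower in control 1 than in any other library by that factor (2%, all genes 5.30%).

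The 200 varied together between libraries. Control 3 was the lowest of the 6 libraries for 125 genes (62.5%), against 17.0% of all genes tested, and the highest for 4. Control 2 and aminophylline 1 were the highest for 58 and 60 genes. Within each group, replicate 3 was the lowest library for 147 genes in control (73.5%, all genes 23.5%) and 127 with aminophylline (63.5%, all genes 27.8%), and in both for 103 (51.5%, all genes 13.1%). Exonic length moved with this. Among coding genes, control 3 was the lowest library for 54.7% of the 688 genes under 1000 bases, 22.1% from 1000 to 2000, 8.14% from 2000 to 4000 and 5.66% above. Of the 200, the shares were 71.2% of the 118 under 1000 bases, 53.8% of 52 and 42.9% of 28 in the next classes. Among other non-coding genes the share did not fall with length, at 32%, 28.7%, 36.8% and 37% in the 4 classes. The part of length in the pattern was not tested.

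**Figure D5:**
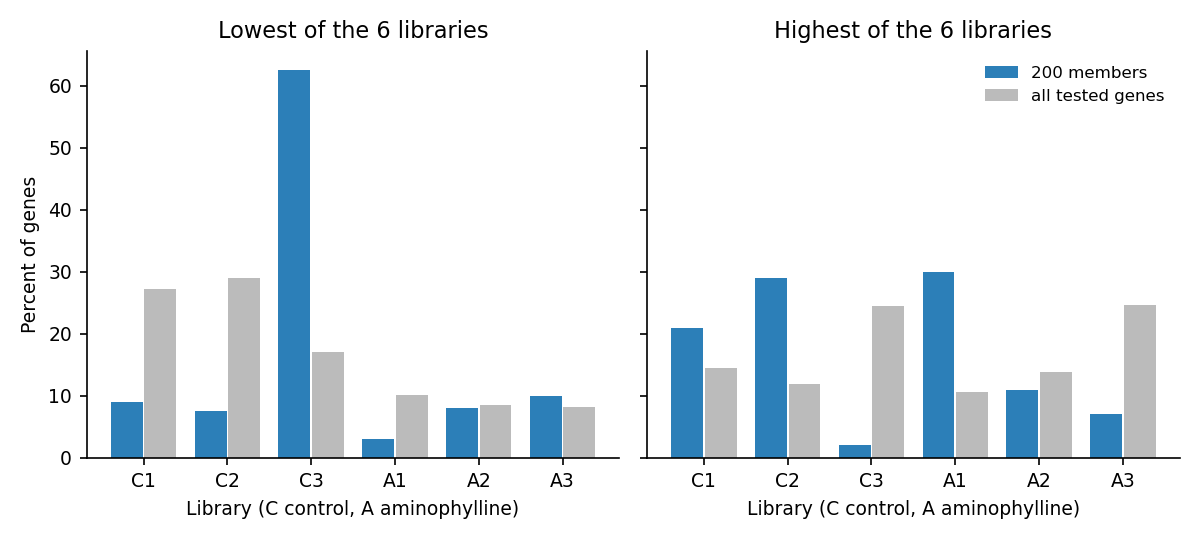
Percent of genes for which each library (C1 to C3 control, A1 to A3 aminophylline) was the lowest (left) or the highest (right) of the 6, for the 200 genes and for all 10340 genes tested. Control 3 was the lowest for 62.5% of the 200 and 17.0% of all genes, and control 2 and aminophylline 1 were the most frequent highest libraries of the 200.

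The share of the signal on the 200 overlapped between the groups. The genes held 3.89%, 3.85% and 3.39% of the summed FPKM in control and 3.95%, 3.85% and 3.67% with aminophylline, or 3.71% ± 0.280 against 3.83% ± 0.142 (SD, n = 3; exact two-sided permutation test, p = 0.6). Counted in reads the shares were 2.20% ± 0.260 and 2.25% ± 0.139. Without control 3 the difference in FPKM share, 0.116 percentage points, became -0.045. Gm and LOC models held 2.38% ± 0.234 in control and 2.52% ± 0.149 with aminophylline, and Rik clones 0.718% ± 0.0530 and 0.719% ± 0.0213 (exact permutation p = 0.5 and 1.0). The pseudogene by name, Smkr-ps, was at 33.7 ± 4.58 and 34.7 ± 2.50 FPKM. Of the 5 higher genes, 5 were Gm or LOC models, and of the 3 lower ones 2 were such models and 1 was a Rik clone.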

How the data were processed

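RNA of oocytes was sequenced in 6 libraries, 3 control and 3 aminophylline, grouped by GEO's labels. The authors deposited FPKM per gene with no further scaling. The submitters' processing notes name GRCm38 (mm10), and the aligner, counter and annotation are not given in the sources used here. Column names of the table matched the labels, and 0 columns belonged to no sample. The 200 genes and all lists were chosen with earlier results of these data known.

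Whole reads and exonic lengths were recovered from the ratios between libraries for 22583 of 22583 genes above 0 in at least 2 libraries (lengths whole within 0.001), giving totals of 14112341 to 33641283 reads and sums of 510206 to 587775 FPKM. Groups were compared with limma 3.58.1 (R 4.3.3, eBayes with trend, two-sided) on log2(FPKM + 1), over 10340 genes that reached 1 FPKM in 3 or more libraries, Benjamini-Hochberg adjusted over all of them. Fold changes on this scale understate those of low genes. Shares were compared by exact permutation over 20 arrangements. The design named a count-scaled fit (TMM), which was not run. On simulated reads with known changes, the same code was tested first.

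Replicate numbers come from the labels. Deviations from the group means correlated between same-numbered libraries (r = 0.138, 0.140 and 0.552 over 10340 genes), and, between different numbers, r reached 0.423 for control 2 with aminophylline 1. Since every same-numbered value was over 0.1, a fit with the replicate number as a block was added. The labels state no pairing, so results of that fit depend on this choice.

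Gene positions, biotypes and promoter windows came from RefSeq (GRCm38.p6), matched by NCBI gene number, with strands also from GENCODE. Windows were compared with blastn 2.17.0 (expect value at most 1e-10), leaving out pairs within 1000 bases. Named were the 10 highest genes, those past the thresholds, the 2 highest of each name class, known long non-coding RNAs, genes at the edge of the list, the steadiest and most variable, and coding partners. Genes in coding-neighbour, promoter and library comparisons outside this rule were named after their values were seen. Python 3.11.15 and matplotlib 3.10.9 were used.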

Additional observations from a re-analysis of the deposited data

How the results depend on the processing

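The counts of genes past the thresholds, 5 higher and 3 lower among the 200, depended on the setting. The higher count was 3 with no filter, 3 with TPM, 2 with quantile normalization, 1 with median centring, 2 with an unmoderated linear model, 11 with library weights and 1 with a fold threshold of 2. The lower count was 6 with library weights and 1 with a fold threshold of 2. Chosen after seeing the data, voom with the replicate block gave 8 and 5, median centring with the block 2 and 5, length correction with the block 2 and 5, and voom with upper-quartile scaling 5 lower. Leaving out 1 library gave 1 to 21 higher (21 without control 2, 1 without aminophylline 1) and 1 to 6 lower (1 without control 1, 6 without control 2). Genes with an adjusted p under 0.05 were 1 higher and 2 lower with the replicate block and 1 and 1 with voom and the block, against 0 and 0. For proteins of small RNA particles, 1 higher and 0 lower became 2 higher with a pseudocount of 0.1, 0 with a mean FPKM of at least 5, 3 higher and 1 lower with library weights, 2 higher with voom, 2 with voom and upper-quartile scaling and 3 with voom and the block, and leaving out 1 library gave 1 to 4 higher (4 without control 3) and 0 to 1 lower. The median log2 fold change of 0.132 was 0.028 to 0.225 when 1 library was left out and -0.002 with length correction and the block. The difference in FPKM share of 0.116 points ran from -0.045 (without control 3) to 0.207 (without control 1). Snhg6 (0.12) was at -0.08 with length correction and the block. Snhg15 (0.03) was at -0.01 with TPM, -0.05 with median centring, -0.05 with centring and the block, -0.14 with length correction and the block, and -0.18 to 0.34 when 1 library was left out. Refits were counted for the 8 genes past the thresholds and the 4 snoRNA hosts in the list, 240 in all. Of these, 8 turned direction, all in Snhg6 and Snhg15, 35 lost an unadjusted p under 0.05, 3 gained it and 194 did neither. Other named genes were not in this count, and some of them turned direction too. Gm3143 (0.16) ran from -0.08 to 0.41 when 1 library was left out. Where not stated by its construction, the cause was not tested. Voom with TMM was not run.

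Few reads stood behind some values of short genes. Gm41040 had 93 reads in control 1, although that library was the deepest, and Gm38460 had 77 reads in its lowest library. With 3 libraries a group a share cannot reach an exact permutation p under 0.1.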
